A study of Homo sapiens with 6 samples.

Results

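This account compares the induced fusion of ubiquitin to APE1 (ubAPE1 dox+) with induced wild-type APE1 (wtAPE1 dox+), gene by gene. The cells derive from HEK293, an established line from human embryonic kidney, and carry a tet-on expression system. The members are the 11619 of 15492 array rows whose mean over the 6 columns lay at or above the 25th percentile of row means (5.03 log2). The compared value is the ubAPE1 dox+ column minus the wtAPE1 dox+ column on the log2 scale, with the median difference over the kept rows (-0.051) subtracted, so that 0 stands for the median row. The groups were ubAPE1 dox+ and wtAPE1 dox+, the same lines without the drug (ubAPE1 dox- and wtAPE1 dox-), and an empty-vector line with and without it (vector dox+ and vector dox-). All carried a pcDNA-FRT construct and grew in DMEM/F12 with 10% serum and puromycin at 1 µg/ml, and the dox+ cells received 2 µg of doxycycline for 16 h. Total RNA was labelled by an Affymetrix whole-transcript assay. Each group is 1 deposited column, per the labels a mean over 3 biological replicates, so the scatter of these replicates cannot be read from the files. The ubiquitin moiety and the cell line that carries it cannot be told apart, since each construct is represented by 1 line here, and the drug was given to both columns compared.

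APE1, the product of APEX1, cuts DNA at abasic sites in base excision repair and is also known as Ref-1, a redox regulator of transcription factors such as AP-1 and HIF-1. Ubiquitin is a small protein that E1, E2 and E3 enzymes attach to other proteins and that deubiquitinating enzymes remove. Chains of it can send a protein to the proteasome, whereas a single ubiquitin often alters location or binding, and a fusion of ubiquitin to a protein is used to mimic the attached form.

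The 2 induced lines had nearly the same expression profile. Of the kept rows, 86.9% lay within 0.25 log2 of the median row, 20 were at least 1.5-fold (0.585 log2) higher in ubAPE1 dox+ than in wtAPE1 dox+ (0.172% of rows), and 31 were at least 1.5-fold lower (0.267%). The highest named rows were SRSF10 and TMC7, and the lowest were RWDD4 and LBP. Differences ranged between -1.14 and 1.41 log2 over all kept rows. With 1 averaged column a group there is no replicate check of these differences, so they are described by size and carry no p-value.

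**Figure D1:**
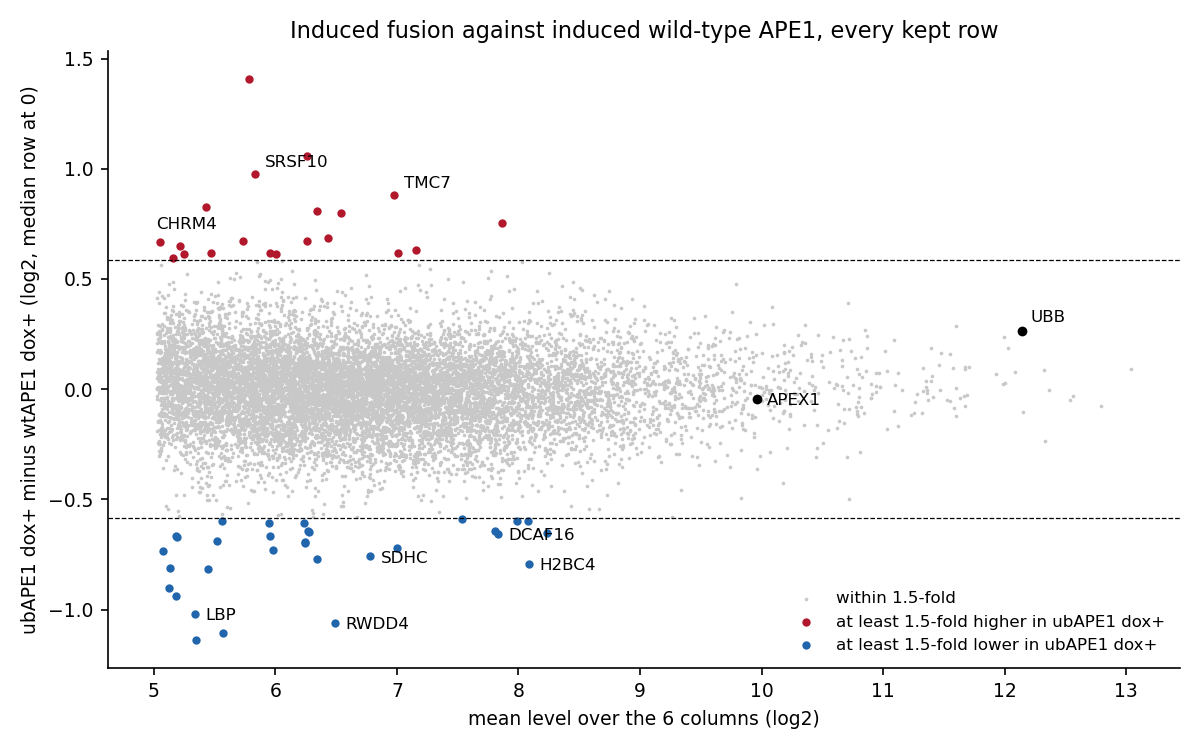
Difference of ubAPE1 dox+ minus wtAPE1 dox+ (log2, median row at 0, y axis) against the mean level over the 6 columns (log2, x axis) for each of the 11619 kept rows; dashed lines mark 1.5-fold. The 20 red points lie above and the 31 blue points below these lines, most of them at mean levels under 7, while APEX1 (-0.044) and UBB (0.27) lie between the lines.

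APEX1 itself, the gene of the transgene, was at 10.58 log2 in ubAPE1 dox+ and 10.67 in wtAPE1 dox+. It was at 9.82 in ubAPE1 dox-, 9.50 in wtAPE1 dox-, 9.66 in vector dox+ and 9.54 in vector dox-. Both induced lines thus stood above the other 4 columns, and they differed from each other by -0.044 relative to the median row. UBB, which encodes a chain of ubiquitin units, was the only ubiquitin precursor gene with a kept row of 1 symbol. Its level was 12.26 in ubAPE1 dox+, 12.05 in wtAPE1 dox+, 12.19 in ubAPE1 dox-, 12.17 in wtAPE1 dox-, 12.06 in vector dox+ and 12.13 in vector dox-. UBB was highest in ubAPE1 dox+. Relative to the median row, it had a difference of 0.27 from wtAPE1 dox+ and of -0.15 between the uninduced lines. The difference with doxycycline was 0.15 after quantile normalization and 0.16 with the trend along genomic length removed. With that trend removed, the difference of UBB between the uninduced lines was 0.12, so its sign there is not settled. Whether probes of UBB also read the ubiquitin part of the fusion transcript was not tested.

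The spread between these 2 columns was the smallest of all 15 pairs that the 6 columns form. The SD of the differences over rows was 0.172 log2, and the levels of the 2 columns had a Pearson correlation of 0.990 across rows, which are not independent replicates. The next closest pairs were ubAPE1 dox+ with wtAPE1 dox- (SD 0.194, with 101 rows past 1.5-fold) and vector dox+ with vector dox- (SD 0.194, with 110 rows). The uninduced pair, ubAPE1 dox- minus wtAPE1 dox-, had an SD of 0.277, with 117 rows at least 1.5-fold higher (1.01%) and 104 at least 1.5-fold lower (0.895%). Against the treated vector line, ubAPE1 dox+ had 1282 rows past 1.5-fold (SD 0.392, the widest pair) and wtAPE1 dox+ had 694 (SD 0.330).

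**Figure D2:**
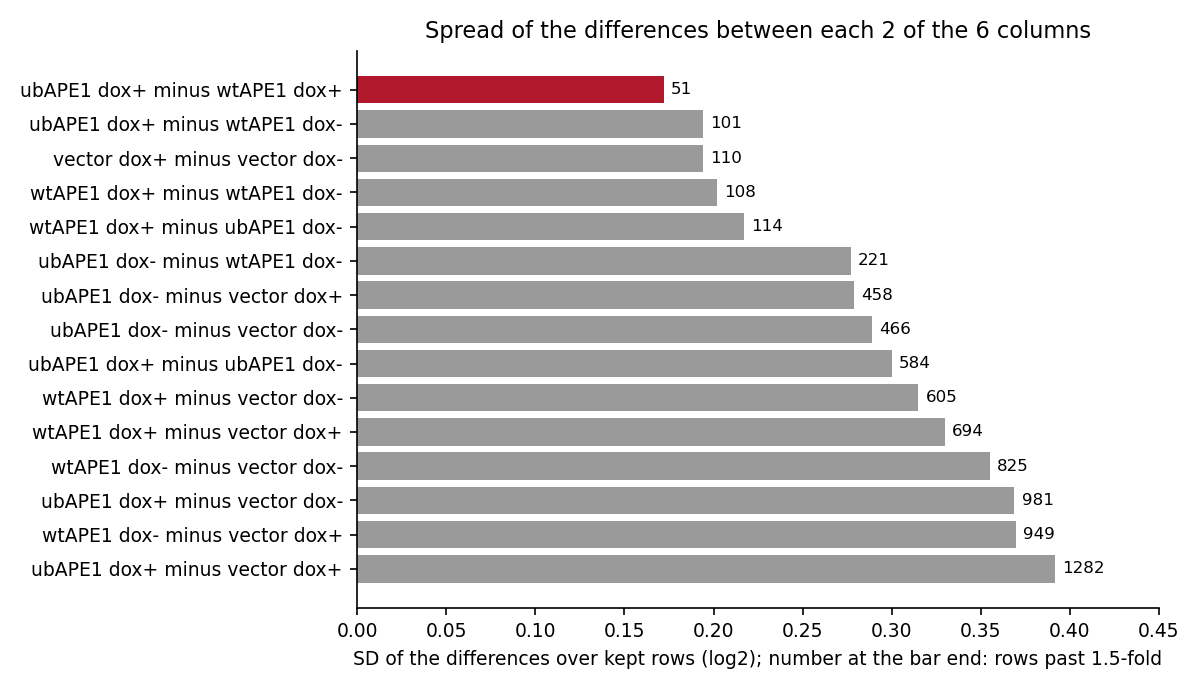
SD of the differences over the kept rows (log2, x axis) for each of the 15 pairs of columns (y axis), with the number of rows past 1.5-fold at the end of each bar. The pair of induced APE1 lines (red) has the shortest bar, with 51 rows past 1.5-fold, and ubAPE1 dox+ minus vector dox+ has the longest, with 1282.

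Among genes that set both APE1 lines apart from the vector line, LCP1 (0.044) and SPARC (0.038) differed little between the induced lines. LCP1, an actin-bundling plastin, was 3.57 log2 higher in ubAPE1 dox+ and 3.53 higher in wtAPE1 dox+ than in vector dox+. SPARC, a matrix glycoprotein, was 3.09 and 3.06 log2 higher in the same order. MAL2, a membrane protein of transcytosis, differed from vector dox+ by -4.93 log2 in ubAPE1 dox+ and by -5.02 in wtAPE1 dox+. EPCAM, an epithelial adhesion protein, was at 4.91 in ubAPE1 dox+ and 4.90 in wtAPE1 dox+, against 8.30 in vector dox+. ETV5, an ETS transcription factor, was at 4.91 in ubAPE1 dox+, 4.58 in wtAPE1 dox+ and 7.14 in vector dox+. Its difference of 0.38 between the induced APE1 lines was the widest among these line genes. In both induced lines, MAL2 (4.06 and 4.01), EPCAM and ETV5 lay under the filter level. The filter was applied to the row mean, which includes the high vector columns. For these genes, closeness or a gap between the induced lines thus rests on dim signal.

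The kidney epithelial origin of the cells was checked with marker genes. KRT8 (10.51 in ubAPE1 dox+ and 10.40 in wtAPE1 dox+), KRT18 (8.19 and 8.15) and PAX2 (6.24 in both columns) were present at like levels in the 2 induced lines, EPCAM was near the filter level in both, and NEFL, a neurofilament gene, was at 8.62 and 8.72. The globin gene HBB was below the filter at 3.97 and 4.05, and COL1A1, a fibroblast collagen, was at 6.32 and 6.26, as high as PAX2. ENO2, like NEFL a neuronal marker, was at 4.97 and 5.27. NEFM, PTPRC, LYZ and DCN had no row with 1 symbol. These levels therefore do not settle the cell type. Over the measured members of the lists, the medians were 0.067 for 12 epithelial and tubule markers, -0.040 for 4 neuronal, 0.021 for 5 fibroblast and 0.11 for 2 blood cell markers. With no row filter the blood and fibroblast medians were -0.046 and 0.10, and with a filter at the 50th percentile the epithelial median was 0.17.

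Of the 31 rows that were lower in ubAPE1 dox+, 21 have 1 gene symbol, and the 2 strongest named ones were about 2-fold lower. RWDD4, which encodes a protein with an RWD domain, was at 5.36 log2 in ubAPE1 dox+ and 6.47 in wtAPE1 dox+, and at 6.87, 6.65, 7.04 and 6.57 in ubAPE1 dox-, wtAPE1 dox-, vector dox+ and vector dox-. The ubAPE1 dox+ column alone was low, and the centred difference of -1.06 is a ratio of 0.480. LBP, the lipopolysaccharide-binding protein, was at 4.75 in ubAPE1 dox+ and 5.82 in wtAPE1 dox+, and at 5.31, 5.27, 5.196 and 5.68 in the other 4 columns in the same order. Here the 2 compared columns were the lowest and the highest of the 6, with a difference of -1.02 at a level close to the filter.

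In other named rows too, ubAPE1 dox+ stood below all other columns, as for RWDD4. LSM2, a subunit of the Sm-like ring that binds U6 RNA and takes part in mRNA decay, was at 5.53 in ubAPE1 dox+ and 6.27 in wtAPE1 dox+, with the other 4 columns between 6.37 and 6.48 (difference -0.69). PCNP, a nuclear protein with PEST sequences of the kind found in short-lived proteins, was at 7.43 in ubAPE1 dox+ and 8.08 in wtAPE1 dox+, with the others between 8.12 and 8.44 (difference -0.60). DCAF16, a substrate receptor of the CUL4 and DDB1 ubiquitin ligase, was at 7.24 in ubAPE1 dox+ and 7.95 in wtAPE1 dox+, with the others between 7.62 and 8.13 (difference -0.66). SEPTIN7, a GTP-binding cytoskeletal protein, was at 5.37 in ubAPE1 dox+ and 6.12 in wtAPE1 dox+, with the others between 6.08 and 6.98 (difference -0.70).

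Other named rows were low in ubAPE1 dox+ and also in wtAPE1 dox-. SDHC, a membrane anchor subunit of succinate dehydrogenase (complex II), was at 5.95 in ubAPE1 dox+ and 6.76 in wtAPE1 dox+, and at 7.17 in ubAPE1 dox- and 6.16 in wtAPE1 dox-. The vector columns were at 7.27 with and 7.37 without the drug, so both APE1 lines had 1 low column, the fusion with doxycycline and the wild type without it. LRIF1, a chromatin protein that binds HP1, also had its 2 lowest levels in these columns, with 5.29 in ubAPE1 dox+ and 6.07 in wtAPE1 dox+, with 6.45 in ubAPE1 dox- and 5.43 in wtAPE1 dox-, and with 6.19 and 6.46 in vector dox+ and vector dox-. The differences with doxycycline were -0.76 for SDHC and -0.73 for LRIF1, and those without it were 0.84 and 0.85. RBMS2, an RNA-binding protein (-0.65 with and 0.63 without doxycycline), KLHL23, a BTB-kelch protein (-0.59 and 0.63), and PMS2CL, a pseudogene related to the mismatch repair gene PMS2 (-0.67 and 0.87), were likewise lowest in ubAPE1 dox+ and next lowest in wtAPE1 dox-. KLHL23 has a second row whose difference with doxycycline was 0.029, so its 2 rows disagree, and signal of PMS2CL may include its near-identical relatives.

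The remaining named rows past 1.5-fold on the low side included transcription and chromatin genes, namely MORC4, a CW-type zinc finger ATPase (-0.72), the zinc finger gene ZNF331 (-0.64) and ZBTB41 (-0.61). FUT1, the fucosyltransferase of the H antigen, had -0.67 at a level under 5.2 in both compared columns, and SMIM14, a small membrane protein, had -0.67. A dim row of FN1, fibronectin, had -0.73, whereas the brighter row of the same gene had -0.17. FAM27E5 (-0.69) and MGC34796 (-0.60), listed under locus names, were as far below between the uninduced lines (-0.69 and -0.62). C5orf34 had -0.61. KLHL23 was the row just past the 1.5-fold limit on this side, and RPL4 (-0.58), a ribosomal protein gene, was just short of it.

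Of the 20 rows that were higher in ubAPE1 dox+, 11 have 1 gene symbol. SRSF10, an SR-like splicing factor, was at 6.52 in ubAPE1 dox+ and 5.59 in wtAPE1 dox+, and at 5.91, 5.51, 5.74 and 5.72 in ubAPE1 dox-, wtAPE1 dox-, vector dox+ and vector dox-. Its ubAPE1 dox+ column stood above all others, and the difference of 0.98 is a ratio of 1.97. Only 45% of the array rows numbered next to the SRSF10 row belong to its chromosome, so the annotation of that row is uncertain. TMC7, a transmembrane channel-like protein, was at 7.22 in ubAPE1 dox+ and 6.39 in wtAPE1 dox+, and at 7.24, 6.80, 7.46 and 6.75 in the other 4 columns in the same order. For TMC7 it was wtAPE1 dox+ that was lowest, while ubAPE1 dox+ lay inside the range of the rest (difference 0.88).

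In 5 further named rows the ubAPE1 dox+ column was the highest of the 6. PYM1, which takes the exon junction complex off translated mRNA, was at 6.53 in ubAPE1 dox+ and 5.91 in wtAPE1 dox+, with the others between 6.10 and 6.43 (difference 0.67). GLTP, a glycolipid transfer protein, was at 7.34 in ubAPE1 dox+ and 6.77 in wtAPE1 dox+, with the others between 6.79 and 7.19 (difference 0.62). MRPL49, a protein of the large mitochondrial ribosomal subunit, was at 6.45 in ubAPE1 dox+ and 5.89 in wtAPE1 dox+, with the others between 5.77 and 6.18 (difference 0.61). The other two were CYP2F1, a cytochrome P450 (6.36 in ubAPE1 dox+ and 5.79 in wtAPE1 dox+, difference 0.62), and C1orf222, the row just past the limit on this side (0.60), which is dim in every column.

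CHRM4, the M4 muscarinic acetylcholine receptor, had the largest reversal among named rows. It was at 5.33 in ubAPE1 dox+ and 4.71 in wtAPE1 dox+, at 4.78 in ubAPE1 dox- and 5.84 in wtAPE1 dox-, and at 5.17 and 4.49 in vector dox+ and vector dox-. The difference was 0.67 with and -1.24 without doxycycline, at levels near the filter. SYP, the synaptic vesicle protein synaptophysin, was at 5.48 in ubAPE1 dox+ and 4.92 in wtAPE1 dox+ (difference 0.62), both lower than the uninduced columns of their own lines at 6.06 and 5.83. SVBP, a partner of the vasohibin enzymes that trim tubulin, had 0.61, and SUZ12P1, a pseudogene of SUZ12 whose signal may include that gene, had 0.69. GALR2, a galanin receptor, was just short of the limit (0.58).

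Below the limit, the next named rows on the high side included metabolic and protein-folding genes that were well above the filter. ABAT, the enzyme that breaks down GABA, was at 7.62 in ubAPE1 dox+ and 7.11 in wtAPE1 dox+, and at 7.02, 7.40, 6.96 and 6.97 in ubAPE1 dox-, wtAPE1 dox-, vector dox+ and vector dox-. TBCA, a tubulin folding cofactor, was at 7.64 in ubAPE1 dox+ and 7.15 in wtAPE1 dox+, and at 7.01, 7.37, 7.02 and 7.44 in the same 4 columns. In both genes ubAPE1 dox+ was highest and ubAPE1 dox- was below wtAPE1 dox-, with differences of 0.56 and 0.54 with doxycycline and of -0.55 and -0.53 without it. CHCHD10, a protein of the mitochondrial intermembrane space, had 0.53 with and -0.68 without doxycycline. DPH3, a factor of diphthamide synthesis on elongation factor 2, had 0.53 with and -0.16 without it. TXNDC11, a thioredoxin-domain protein, had 0.56 in a dim row and -0.16 in its brighter row.

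**Figure D3:**
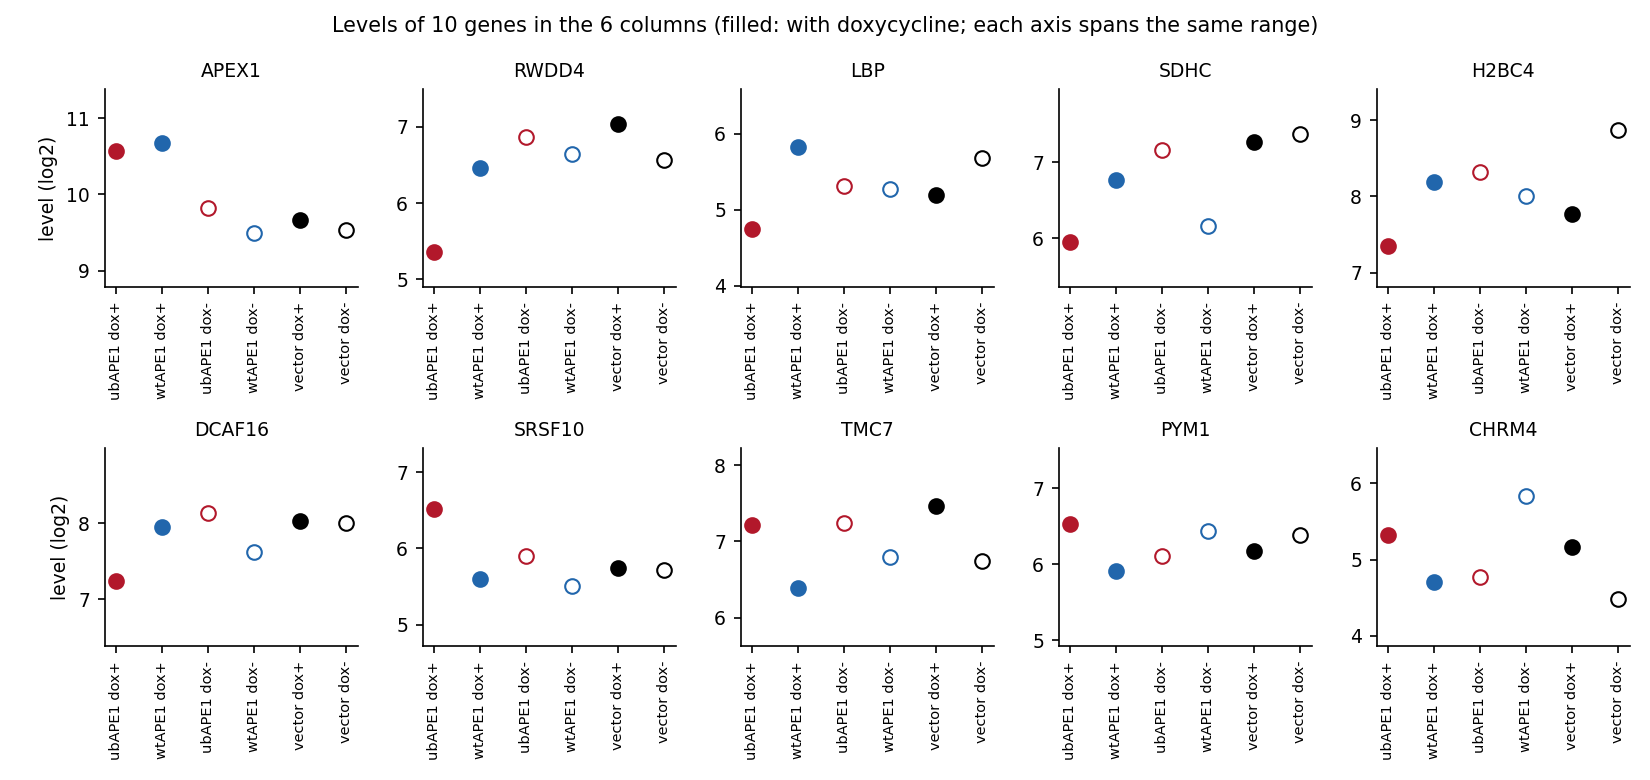
Levels (log2, y axes of equal span) of 10 genes in the 6 columns (x axes), with doxycycline as filled and without as open circles. APEX1 stands high in both induced APE1 columns, RWDD4 and DCAF16 are lowest and SRSF10 is highest in ubAPE1 dox+, and for SDHC both ubAPE1 dox+ (5.95) and wtAPE1 dox- (6.16) are low.

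In the lists of the ubiquitin system the differences were small, and in all but the proteasome list most were below 0. None of 22 measured E1 and E2 genes, 55 ligase genes, 46 deubiquitinating enzyme genes and 32 proteasome genes passed 1.5-fold in either direction, beside 0.172% and 0.267% of all rows, a share at which few or no members would pass. DCAF16, described above (-0.66), is a ligase receptor that the ligase list does not hold. The medians were -0.056 for E1 and E2 enzymes (7 above 0 and 15 below), -0.11 for ligases (13 above and 42 below), -0.063 for deubiquitinating enzymes (18 above and 28 below) and 0.002 for proteasome subunits (16 above and 16 below). Over all kept rows the median is 0 by construction. Between the uninduced lines the medians of these lists were 0.070, 0.24, 0.19 and 0.18 in the same order. There 14 of 22, 50 of 55, 35 of 46 and 28 of 32 genes lay above 0. With the trend along genomic length removed, these uninduced medians were -0.017, 0.14, 0.091 and 0.24. Those with doxycycline were then -0.031, -0.054, -0.019 and -0.014, so the E1 and E2 median was below 0 in both states. At the low end were ATXN3, the deubiquitinating enzyme ataxin-3 (-0.44), MDM4, a partner of MDM2 in the control of p53 (-0.39), VHL, the receptor of the ligase for hydroxylated HIF proteins (-0.37), and UBE2H, an E2 enzyme (-0.29). At the high end was BRCC3, which removes ubiquitin chains linked through lysine 63. BRCC3 was at 7.95 in ubAPE1 dox+ and 7.47 in wtAPE1 dox+, and at 7.84 in ubAPE1 dox-, 7.42 in wtAPE1 dox-, 7.90 in vector dox+ and 8.07 in vector dox-. Both wtAPE1 columns of BRCC3 were thus lower than the other 4 (difference 0.54 with and 0.25 without doxycycline). PSMD10, a chaperone of the proteasome cap also known as gankyrin, had 0.47, and PSMB6, a catalytic core subunit, had 0.35. The sign of the proteasome median is not settled, since it was below 0 under 4 alternative treatments of the values.

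The 18 measured base excision repair genes had a median of -0.052, ranged between -0.27 and 0.12, and 14 of them lay below 0. None passed 1.5-fold, beside 0.172% and 0.267% of all rows, so the count says little about a list of this size. The glycosylases NEIL3 (-0.27) and TDG (-0.21) were lowest, and the gap-filling polymerase POLL (0.12) and the glycosylase MPG (0.099) were highest. POLB, the main gap-filling polymerase, had -0.060, and UNG, the uracil glycosylase, had -0.002. Homologous recombination and Fanconi genes had a median of -0.11 over 24 genes, 19 of them below 0. FANCB (-0.55) and FANCI (-0.48), which belong to the Fanconi core and the complex it ubiquitinates, were lowest. The FANCB row was dim, at 4.68 in ubAPE1 dox+ and 5.28 in wtAPE1 dox+. DNA replication genes had -0.063 over 43 genes, with TK1, the thymidine kinase of dividing cells (0.42), and PRIM2, a primase subunit (-0.36), at the ends.

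Among lists of at least 10 measured genes, mitosis genes had the lowest median. It was -0.18 over 48 genes, 38 of them below 0 and 0 past 1.5-fold. KIF15, a spindle motor (-0.48), NUF2, a kinetochore subunit (-0.39), ECT2, an exchange factor of cytokinesis (-0.37), and CENPF, a kinetochore protein (-0.36), were at the low end, and AURKB, the kinase of the chromosomal passenger complex (0.22), was at the high end. The KIF15 row was dim, at 4.71 in ubAPE1 dox+ and 5.24 in wtAPE1 dox+. NUF2 was at 6.62 in ubAPE1 dox+ and 7.06 in wtAPE1 dox+, and at 7.27, 6.80, 7.48 and 7.46 in the other 4 columns. The ubAPE1 dox+ column of NUF2 was thus lowest. Between the uninduced lines the mitosis list had a median of 0.31, with 41 of 48 genes above 0. In bulk RNA, fewer cells in mitosis and less RNA per cell cannot be told apart.

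**Figure D4:**
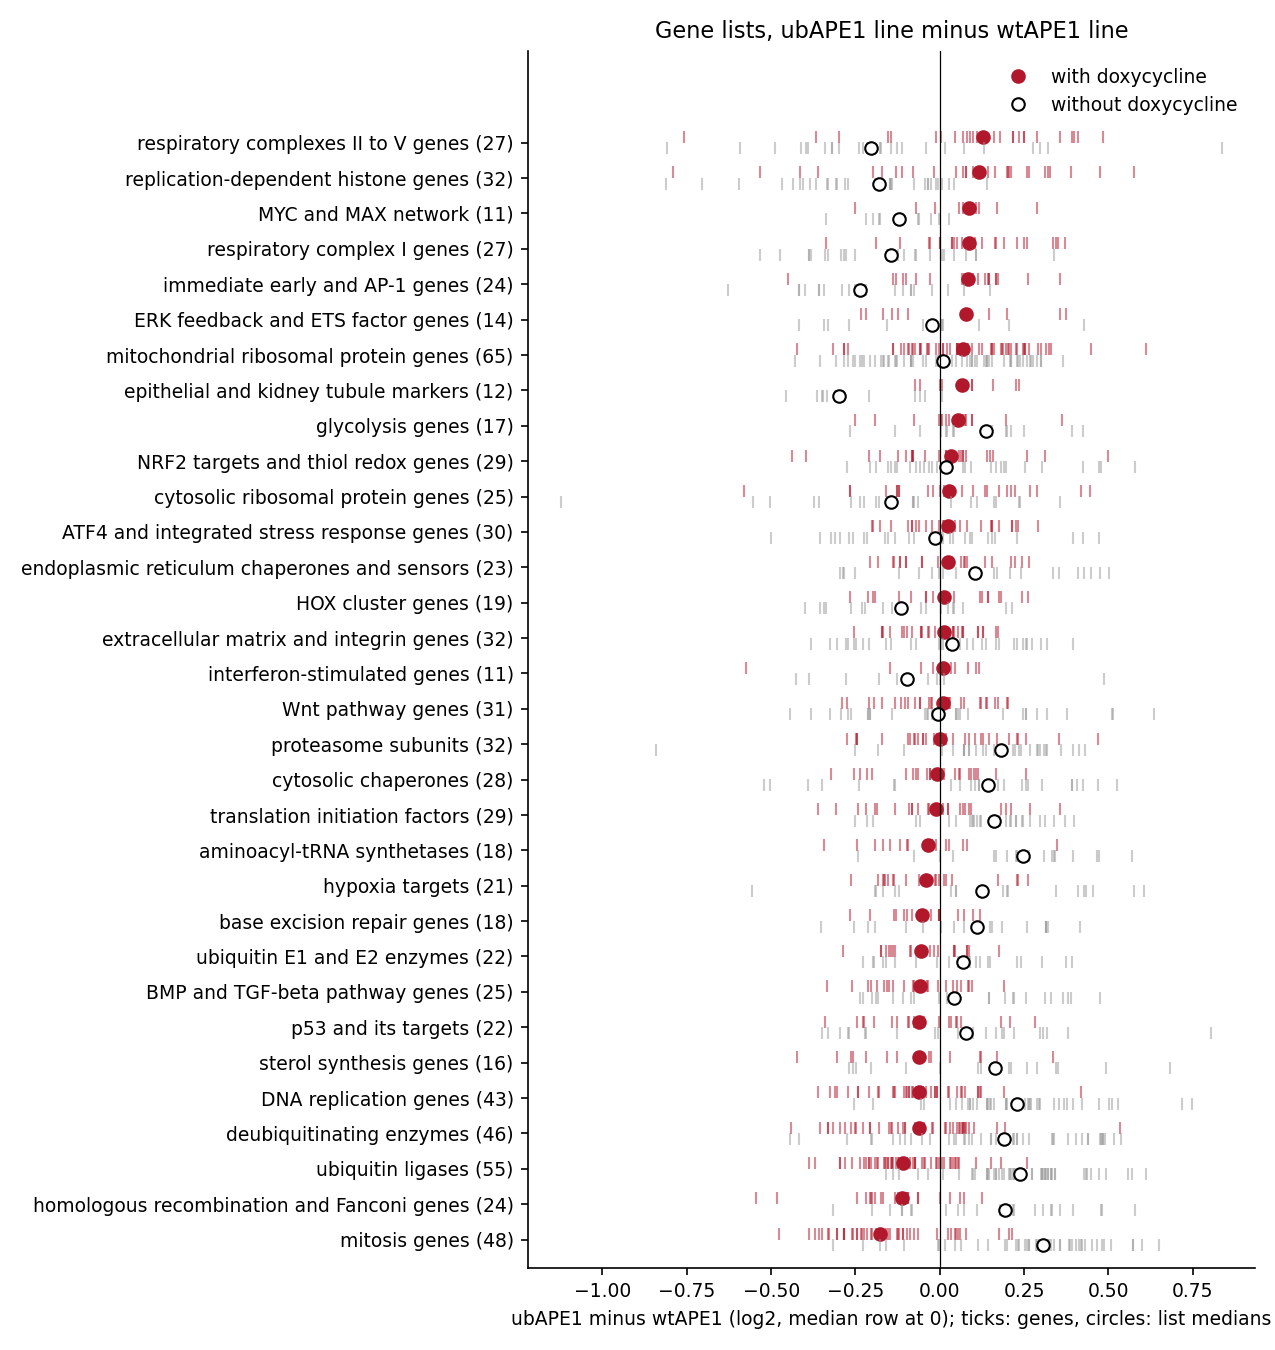
Differences between the ubAPE1 and wtAPE1 lines (log2, median row at 0, x axis) for each gene list with at least 10 measured genes (y axis, number measured in brackets), with doxycycline in red and without it in grey and open circles. Mitosis genes have the lowest median with doxycycline (-0.18) and respiratory complexes II to V the highest (0.13), and both medians lie on the other side of 0 without it.

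The nuclear-encoded respiratory chain genes had medians above 0. Complexes II to V had a median of 0.13 over 27 genes, 21 of them above 0, with 0 past 1.5-fold on the high side and SDHC alone past it on the low side. COX5B (0.48), COX7A2 (0.41) and COX8A (0.40), nuclear-encoded subunits of cytochrome c oxidase, were highest. Complex I had 0.087 over 27 genes, 21 of them above 0, led by NDUFS7 (0.37) and NDUFB7 (0.35). Mitochondrial ribosomal proteins had 0.070 over 65 genes, with MRPL49 the 1 member past 1.5-fold (1 of 65, beside 0.172% of all rows), and their median was 0.015 with the trend along genomic length removed. The 2 rows of mitochondrially encoded genes, ND5 (-0.50) and ND6 (-0.36), lay below 0, although by array row number only 5% of the neighbours of each row are annotated to the mitochondrial genome. Cytosolic ribosomal proteins had 0.028 over 25 genes, and the sign of that median changed under 3 alternatives. RPL36 (0.44) and RPL4 (-0.58) were its ends, and none of the 20 array rows numbered next to the RPL4 row belongs to the chromosome of RPL4, so the annotation of that row is uncertain.

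Replication-dependent histone genes spread more widely than most lists, from -0.79 to 0.58, with a median of 0.12 over 32 genes. All 9 measured H2A genes lay above 0 (0.12 to 0.48, median 0.20), led by H2AC12 (0.48) and H2AC21 (0.39). Their median was 0.10 with the length trend removed. Of all 1029 rows of genes under 5 kb, 726 lay above 0 with doxycycline. Between the uninduced lines all 9 H2A genes lay below 0 (median -0.15), as did 28 of the 32 histone genes. The median of the histone list there was -0.18, but 0.092 with the length trend removed. With doxycycline it was 0.014 with that trend removed. The sign of the uninduced histone median thus depends on the length trend. The 8 H2B genes ran from -0.79 to 0.33 with a median of -0.096, and the 8 H4 genes from -0.53 to 0.58 with a median of 0.027. H2BC4 was the 1 member past 1.5-fold. It was at 7.35 in ubAPE1 dox+ and 8.20 in wtAPE1 dox+, and at 8.32 in ubAPE1 dox-, 8.01 in wtAPE1 dox-, 7.77 in vector dox+ and 8.87 in vector dox-. The ubAPE1 dox+ column of H2BC4 was lowest, but the 2 vector columns differed by more than the 2 compared columns. H4C1, at 7.91 in ubAPE1 dox+ and 7.38 in wtAPE1 dox+ (0.58), was just short of the limit, and wtAPE1 dox+ was the lowest of its 6 columns. H4C9 (-0.53), H2BC21 (-0.41) and H2BC8 (-0.36) stood at the low end with H2BC4. Histone genes of a class are near-identical in their coding parts, so signal may be shared between members.

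The upstream sequences of 4 of these histone genes are shown because the list holds genes on both sides of 0 within 1 gene family. H4C1 and H2AC12, which were higher, are not among them. Those of RWDD4 and TMC7 are shown because these genes lie near the ends of the whole comparison. Each is the 200 bases before the RefSeq start on GRCh38.p14, 5′ to 3′ on the strand of the gene, with CCAAT (or ATTGG, its reverse complement) and TATAAA in capitals.
H2BC4 (difference -0.79; chr6:26123927-26124126, minus strand): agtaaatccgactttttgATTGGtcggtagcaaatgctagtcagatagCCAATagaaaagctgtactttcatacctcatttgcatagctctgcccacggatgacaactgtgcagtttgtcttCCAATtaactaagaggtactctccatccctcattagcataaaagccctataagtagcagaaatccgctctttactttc
H4C9 (difference -0.53; chr6:27139082-27139281, plus strand): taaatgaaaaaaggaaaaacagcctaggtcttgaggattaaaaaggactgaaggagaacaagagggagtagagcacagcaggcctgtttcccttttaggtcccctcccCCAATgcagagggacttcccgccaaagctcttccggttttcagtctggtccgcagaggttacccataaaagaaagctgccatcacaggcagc
H2BC17 (difference 0.33; chr6:27893225-27893424, plus strand): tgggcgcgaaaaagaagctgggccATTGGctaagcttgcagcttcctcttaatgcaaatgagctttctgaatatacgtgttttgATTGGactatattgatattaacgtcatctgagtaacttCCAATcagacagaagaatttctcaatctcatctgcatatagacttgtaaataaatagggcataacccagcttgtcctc
H2AC21 (difference 0.39; chr1:149887966-149888165, minus strand): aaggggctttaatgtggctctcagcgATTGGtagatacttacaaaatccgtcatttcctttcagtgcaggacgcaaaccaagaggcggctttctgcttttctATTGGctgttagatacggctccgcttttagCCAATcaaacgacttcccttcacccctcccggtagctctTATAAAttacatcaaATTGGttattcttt
RWDD4 (difference -1.06; chr4:183659186-183659385, minus strand): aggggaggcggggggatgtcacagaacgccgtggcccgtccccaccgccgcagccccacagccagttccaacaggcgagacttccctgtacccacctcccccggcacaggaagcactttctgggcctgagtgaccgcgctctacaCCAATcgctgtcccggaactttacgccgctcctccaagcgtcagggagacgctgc
TMC7 (difference 0.88; chr16:18984087-18984286, plus strand): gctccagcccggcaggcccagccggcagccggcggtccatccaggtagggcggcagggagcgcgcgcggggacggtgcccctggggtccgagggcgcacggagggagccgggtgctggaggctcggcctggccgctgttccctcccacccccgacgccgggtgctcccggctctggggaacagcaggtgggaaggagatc
H2BC4 and H2BC17, at opposite ends of the H2B genes, each hold 3 CCAAT matches, and the nearest of them starts 78 bases before the start in both. H2AC21 holds 4, and also TATAAA 29 bases before its start.

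Matches were counted in the same 200 bases upstream of every gene, on both strands. CCAAT was found in 4 of 8 genes past 1.5-fold on the high side and 6 of 14 on the low side that have a sequence, beside 30.8% of 7860 kept genes and 28.9% of all 27305 promoters. TATAAA was found in 0 of 8 and 1 of 14, beside 3.97% and 8.92%. The AP-1 motif TGANTCA, for a factor that APE1 acts on, was found in 0 of 8 and 0 of 14, beside 2.70% and 5.39%. The HIF-1 core ACGTG was found in 1 of 8 and 1 of 14, beside 19.5% and 15.8%. Of 29 histone genes with a sequence, the 15 with TATAAA had a median difference of 0.11 and the 14 without it 0.10.

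Lists of genes downstream of the redox-regulated factors and of stress pathways had medians close to 0, and none of their members passed 1.5-fold, which is near the share over all rows (0.172% and 0.267%). Immediate early and AP-1 genes had a median of 0.084 over 24 genes (0.026 with the length trend removed), 17 above 0, with IER3, an early response gene (0.36), and FOSL1, an AP-1 subunit (-0.45), at the ends, while JUN had -0.13 and FOS 0.071. Hypoxia targets had -0.042 over 21 genes, p53 and its targets -0.061 over 22, ATF4 and integrated stress response genes 0.025 over 30, and NRF2 targets and thiol redox genes 0.033 over 29. The signs of the ATF4 and NRF2 medians turned under 2 alternatives each. HMOX1, heme oxygenase, was at 6.35 in ubAPE1 dox+ and 5.90 in wtAPE1 dox+, and at 6.28, 6.11, 5.73 and 5.89 in the other 4 columns (difference 0.50). The ubAPE1 dox+ column of HMOX1 was highest, with ubAPE1 dox- next to it. ME1, malic enzyme, lay at -0.44. Glycolysis genes had 0.055 over 17 genes, sterol synthesis -0.063 over 16, aminoacyl-tRNA synthetases -0.034 over 18, and cytosolic chaperones -0.007 over 28, with a sign that turned under 1 alternative. IFIT1, an interferon-stimulated gene, had -0.58 in a list whose median was 0.011 over 11 genes, with a sign that also turned under 2 alternatives.

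The difference between the lines had the other sign without doxycycline in 8177 of 11619 kept rows (70.4%). Over all 11619 kept rows, the difference of ubAPE1 dox+ minus wtAPE1 dox+ had a Pearson correlation of -0.48 and a Spearman correlation of -0.52 with that of ubAPE1 dox- minus wtAPE1 dox-, as a description across rows of 2 comparisons that share no column. With the trend along genomic length removed, in 9647 rows, these were -0.42 and -0.44. Of the 51 rows past 1.5-fold with doxycycline, 38 were within it without (17 of the 20 higher and 21 of the 31 lower rows). Another 9 were past it in the opposite direction and 4 in the same direction, all 4 lower. Over all kept rows, 1.01% were at least 1.5-fold higher and 0.895% at least 1.5-fold lower without doxycycline. The 20 higher rows had a median difference of 0.67 with and -0.29 without doxycycline, and the 31 lower rows of -0.69 with and 0.21 without. Without doxycycline, 14 of the 20 lay below 0 and 19 of the 31 above 0.

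Within the lines, dox+ minus dox- uses the same dox+ columns that chose these rows, so its values are given only as a description. The 20 higher rows had a median of 0.56 log2 relative to the median row in the ubAPE1 line and of -0.50 in the wtAPE1 line. The 31 lower rows had a median of -0.74 in the ubAPE1 line and of 0.25 in the wtAPE1 line.

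**Figure D5:**
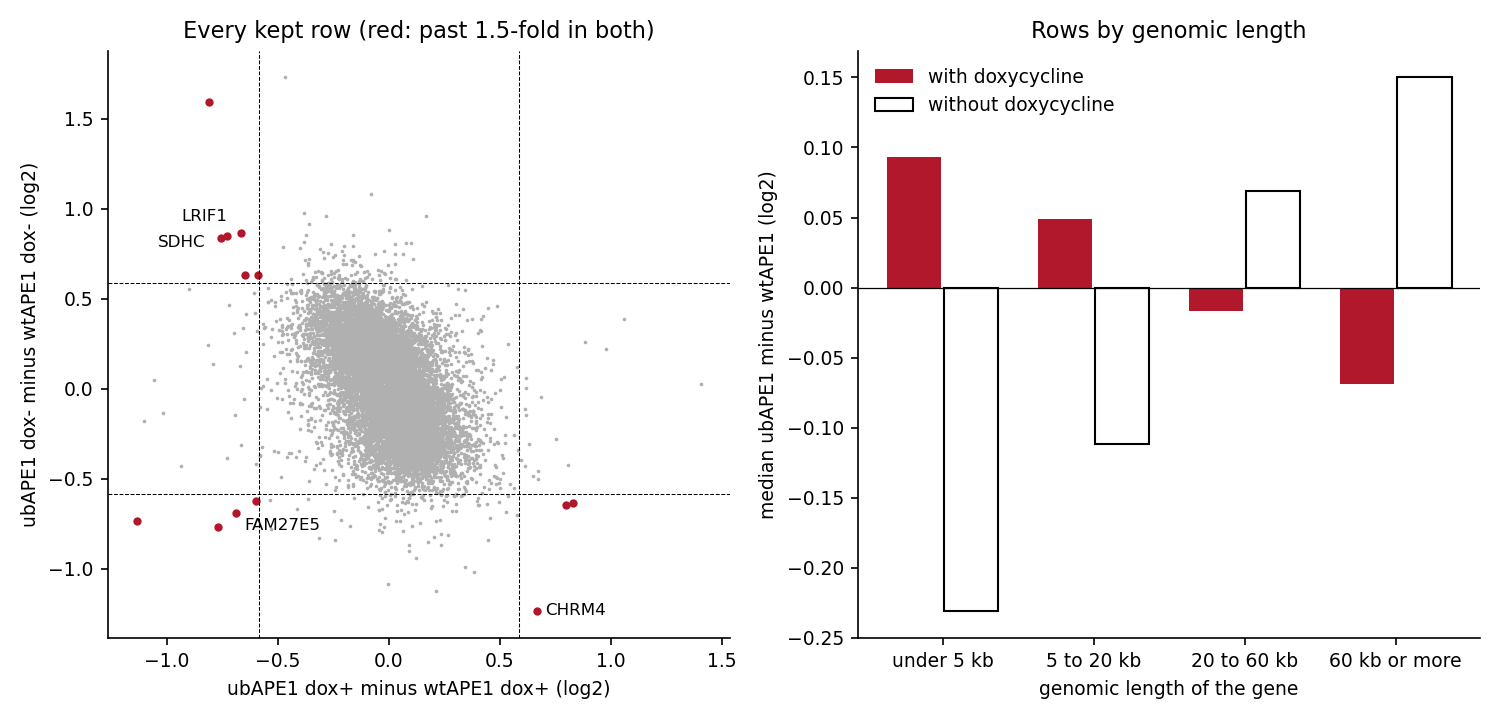
Left, the difference of the ubAPE1 and wtAPE1 lines without doxycycline (log2, y axis) against that with it (log2, x axis) for each kept row, with dashed lines at 1.5-fold and the 13 rows past it in both states in red. Right, the median difference (log2, y axis) in 4 classes of genomic length (x axis), with doxycycline in red and without in white; the medians go down with length with the drug (0.093 to -0.069) and up without it (-0.23 to 0.15).

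The difference also varied with the genomic length of the gene. With doxycycline its median was 0.093 for 1029 rows of genes under 5 kb, 0.049 for 2808 rows of 5 to 20 kb, -0.017 for 3017 rows of 20 to 60 kb and -0.069 for 2793 rows of 60 kb or more. The medians between the uninduced lines were -0.23, -0.11, 0.069 and 0.15 in the same classes. The part of length in the values of single lists was described by removing the trend. The median of mitosis genes was then -0.18, as before, that of ubiquitin ligases -0.054, that of complexes II to V 0.079, that of complex I 0.053, and that of histone genes 0.014. Rows past 1.5-fold were more frequent among dim rows, with 9 higher and 12 lower in the dimmest of 4 equal classes of mean level and 1 higher and 6 lower in the brightest.

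A test was possible only for a difference that the 2 lines kept in both drug states. limma was fitted to all 6 columns as deposited, without centring, with a term for the line and a term for the drug. This left 2 residual degrees of freedom, so the drug states stand in for replicates. The p-values set the mean line difference over both states against the scatter that these terms leave in all lines. No row of 11619 was called for the ubAPE1 line against the wtAPE1 line (0%), and the lowest Benjamini-Hochberg adjusted p from limma was 1. In this fit 47 rows had an unadjusted p under 0.05 (0.405%). With no line difference, a share of about 0.05 of the rows would be expected there, so the fit was conservative. A difference that changed sign between the drug states, as in 70.4% of rows, adds to the scatter. The absence of calls therefore does not show that the 2 lines are alike. With the columns centred on their medians, the fit called 1 row, lower. At the filter, the row just inside had a mean level of 5.0258 and a difference of 0.077, and the row just outside, ZNF597, had 5.0254 and -0.078.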

How the data were processed

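The deposited table holds a log2 level for each transcript cluster (here called a row), 1 column a group, each averaged by the authors over 3 biological replicates, per the labels. That the scale is log2 follows from the range of the numbers. How probes were summarised, background-corrected and normalized is not given in the sources used here. Genome build hg18 is named in the submitters' processing notes. Of 11619 kept rows, 9653 had 1 gene symbol in the platform annotation (9569 genes), 1455 had several and 511 had none, and only 1-symbol rows are named. A gene in a list is represented by its brightest row. Column medians over kept rows were 6.56 to 6.81.

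Named genes were APEX1 and ubiquitin precursors, the 20 highest and 20 lowest 1-symbol rows, list members past 1.5-fold or else the 2 most different, and the 5 largest in each direction with opposite differences in the drug states. Further list members were named after their values were seen. The 37 gene lists, the members and the rules were chosen with earlier results of these data known. Line differences over both states were fitted with limma 3.58.1 (R 4.3.3), adjusted by Benjamini-Hochberg across every kept row, at a threshold of 0.05. The fit was also run on simulated data. There the line shift was equal in both drug states, so differences that change between the states were not covered. Alternatives were other row filters, no centring, quantile normalization, a floor, removal of a length trend in 20 bins, 1 row per gene, a 2-fold rule and other limma settings. Upstream sequences come from RefSeq (GRCh38.p14), matched by symbol. The number of arrays averaged limits the precision.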

Additional observations from a re-analysis of the deposited data

Results flagged for a closer look

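The 6 named rows below differed by more than 1.5-fold between the lines in both drug states, in opposite directions. This difference between the states was not tested. Over all kept rows, 0.172% were past 1.5-fold on the high side and 0.267% on the low side with doxycycline. Without it these shares were 1.01% and 0.895%. With doxycycline, SDHC (-0.759), LRIF1 (-0.731), PMS2CL (-0.668), RBMS2 (-0.649) and KLHL23 (-0.588) were lower in ubAPE1 than in wtAPE1 cells, and CHRM4 (0.668) was higher. Without doxycycline the same differences were 0.84, 0.85, 0.87, 0.63, 0.63 and -1.24 in that order. For the first 5, ubAPE1 dox+ was the lowest of the 6 columns and wtAPE1 dox- was the next lowest.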

How the results depend on the processing

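The pair of induced lines kept the smallest spread of the 15 pairs under every alternative run, a check added after seeing the data. The 20 higher and 31 lower rows became 99 and 87 with no row filter, 9 and 15 with a filter at the 50th percentile, 13 and 47 for the difference as deposited, 11 and 20 with 1 row per gene, and 2 and 4 under a 2-fold rule. With the length trend removed, which drops rows without a length, there were 10 higher and 28 lower rows. The 4 rows in the same direction in both states became 1 as deposited, 0 under the 2-fold rule and 0 with the length trend removed, and the 9 opposite rows became 15 as deposited and 0 under the 2-fold rule. The line fit called 1 row, lower, with centred columns, and 0 in its other settings, where 14 to 179 rows had an unadjusted p under 0.05. No named gene past 1.5-fold turned its direction under an alternative, while values of named genes came to pass the limit 15 times and dropped under it 15 times. As-deposited values shift every list by -0.051. No paired analysis was possible because each group is 1 averaged column without replicate numbers. Differences at levels near the filter, such as those of LBP, CHRM4, KIF15, FANCB and IFIT1, rest on dim signal.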

Other observations

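Zinc finger genes, a large family of DNA-binding regulators, lay slightly below the median row in ubAPE1 dox+ against wtAPE1 dox+. Of 208 measured genes whose symbol starts with ZNF, 129 were below 0 and 79 above, with a median of -0.045 log2, and between the uninduced lines the median was 0.084. With the length trend removed, the median with doxycycline was -0.051. Genes of solute carriers, whose symbols start with SLC, had a median of 0.012 over 189 genes, with 98 above 0. Developmental and matrix lists had medians near 0 with doxycycline, and none of their members passed 1.5-fold, which is near the share over all rows (0.172% and 0.267%). Their medians were 0.011 for 31 Wnt pathway genes, -0.060 for 25 BMP and TGF-beta pathway genes, 0.012 for 32 matrix and integrin genes and 0.013 for 19 HOX genes. The largest difference within each list was that of FZD6, a Wnt receptor (-0.29), ID4, an inhibitor of bHLH factors (-0.33), VCAN, the matrix proteoglycan versican (-0.25), and HOXC10 (-0.27). The sign of the HOX median turned under 3 alternatives, that of the Wnt median under 2 and that of the matrix median under 1. Among growth-control genes, the medians were 0.087 for 11 genes of the MYC and MAX network, with MYCN at 0.29 and MXD3 at -0.25, and 0.079 for 14 ERK feedback and ETS factor genes, a median that was -0.11 under the filter at the 50th percentile. Translation initiation factors had -0.012 over 29 genes, with EIF4EBP1 (0.36) and EIF5B (-0.36) at the ends, though none of the array rows numbered next to the EIF4EBP1 row belongs to its chromosome. Endoplasmic reticulum chaperones and sensors had 0.023 over 23, with a sign that turned under 3 alternatives. The ZNF and SLC families were looked at after other values had been seen, and no test was made.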
